A study of Rattus norvegicus with 12 samples.

Results

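The integrin receptor genes described here are 10 subunit genes known to be expressed in the heart, 7 for alpha subunits (Itga1, Itga3, Itga5, Itga6, Itga7, Itga8 and Itgav) and 3 for beta subunits (Itgb1, Itgb3 and Itgb5). They were taken by gene symbol from the 18483 genes of the RNA-seq tables, and all 10 were among the 13967 genes that passed the filter on low counts. RNA came from NRVMs, which are ventricular myocytes isolated from newborn Sprague-Dawley rats, in 4 groups of 3 independent biological replicates. The siNeg group received a control siRNA and the siSlc39a2 group an siRNA against Slc39a2, for which a single sequence was used, a member of the SLC39 family of zinc importers. The siNeg PE and siSlc39a2 PE groups also received PE (phenylephrine), an alpha1-adrenergic agonist that induces hypertrophy of cultured myocytes, for 36 h by the sample labels, after 12 h of transfection. All groups shared the isolation on Percoll gradients, gelatin-coated dishes, serum-free medium and transfection, so an effect of plating on gelatin or of transfection itself would be present in every sample.

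Integrins are heterodimers of 1 alpha and 1 beta subunit that span the plasma membrane, bind the extracellular matrix or other cells outside, and connect to actin through talin, kindlin and the ILK complex inside. In heart muscle they sit at costameres and focal adhesions, transmit force between sarcomere and matrix, and signal through FAK and Src when the cell is stretched or stimulated to grow. Itgb1 encodes the beta1 subunit, the partner of the alpha1, alpha3, alpha5, alpha6, alpha7 and alpha8 subunits. Beta1 can also pair with alphav. Itgb3 and Itgb5 pair with alphav in receptors for vitronectin and other proteins with an RGD sequence. Integrin alpha7beta1 is the main laminin receptor of mature striated muscle, alpha3 and alpha6 are further laminin-binding subunits, alpha1 binds collagen and laminin, and alpha5, alpha8 and alphav are RGD-binding. Gene counts do not separate the splice forms of these subunits, such as the muscle form of beta1.

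The sequences upstream of Itgb1 and Itgav are shown because these were the beta and the RGD-binding alpha gene with the largest increases in siSlc39a2 PE compared with siSlc39a2. They are the 250 bases before the annotated start from RefSeq (GRCr8), 5′ to 3′ on the strand of the gene. Capitals mark matches, on either strand, to a GC box (GGGCGG) or to the core of a TEAD motif (GGAATG).
Itgb1, chr19:73602027-73602276, plus strand: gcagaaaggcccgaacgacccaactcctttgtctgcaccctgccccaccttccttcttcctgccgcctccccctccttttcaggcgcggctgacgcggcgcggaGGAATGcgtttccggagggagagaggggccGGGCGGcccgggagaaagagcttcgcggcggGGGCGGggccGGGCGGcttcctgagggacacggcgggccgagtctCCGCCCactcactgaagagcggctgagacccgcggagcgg
Itgav, chr3:89245132-89245381, plus strand: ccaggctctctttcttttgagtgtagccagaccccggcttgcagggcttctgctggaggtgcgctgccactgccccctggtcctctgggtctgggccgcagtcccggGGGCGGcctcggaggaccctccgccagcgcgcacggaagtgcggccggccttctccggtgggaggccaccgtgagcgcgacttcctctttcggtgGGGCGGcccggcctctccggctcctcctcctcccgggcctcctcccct

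Such windows were found for 7 of the 10 integrin genes, namely Itga1, Itga3, Itga5, Itga8, Itgav, Itgb1 and Itgb5. The window of Itgb1 was 71.2% G or C and held 4 GC boxes, the nearest with its first base at position -40 from the start, and 1 TEAD core with its first base at position -146. The Itgav window was 72.0% G or C and held 2 GC boxes, at positions -143 and -48. Over 27457 rat promoters of the same length the median was 52.0% G or C. A GC box was present in 4 of the 7 windows and in 32.4% of all windows, and a TEAD core in 2 of the 7 and in 11.8% of all. No match to the AP-1 motif TGANTCA or to the CArG box was found in the 7 windows, against 6.36% and 1.5% of all windows. The windows of Itgb5, Itga1 and Itga8 held none of these motifs. These matches describe the letters of the windows only.

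Total counts per sample were between 24065539 and 28603854. Slc39a2 was at 2.06 ± 0.229 CPM (counts scaled to the TMM-normalized library size, SD, n = 3) in siNeg and at 0.392 ± 0.324 in siSlc39a2. With PE it was higher, at 5.71 ± 1.92 CPM in siNeg PE and 1.13 ± 0.260 in siSlc39a2 PE. The targeted transcript was thus lower where the labels say so, at low counts (2 to 21 per siSlc39a2 sample). All 8 cardiomyocyte markers were detected, with a summed level of 42324 to 43607 CPM in siNeg. Fibroblast markers were also present, at a summed 13911 to 18414 CPM in siNeg, so the cultures held RNA of other cells beside myocytes. In replicate 1 of siNeg, siNeg PE and siSlc39a2 PE, genes with long transcripts were low. When all genes were split by length into 5 classes of equal size, those of class 5, the longest, lay below the group mean by a median of -0.16, -0.11 and -0.13 on the log2 scale. In replicate 3 of the same groups they lay above it by 0.087, 0.074 and 0.131. The integrin genes are long and all fell in class 4 or class 5. Of the 10 genes, 7 had their lowest CPM of the siNeg group in replicate 1, compared with 6 in siNeg PE and 5 in siSlc39a2 PE. The share of all genes lowest in replicate 1 was not counted.

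In siNeg cells the integrin genes fell into a high and a low set when their levels were compared in FPKM, which is scaled to gene length. Itga7 was highest at 107 ± 3.28 FPKM (SD, n = 3), above the samples of Itgb5 at 98.1 ± 1.45. Itgb5, Itgb1 at 93.2 ± 12.9 and Itga5 at 86.1 ± 1.36 followed, each overlapping its neighbour in sample range. Far below came Itga3 at 30.7 ± 0.237 FPKM, Itgb3 at 21.5 ± 2.004, Itgav at 8.76 ± 1.66, Itga1 at 8.29 ± 0.702, Itga6 at 3.47 ± 0.535 and Itga8 at 1.28 ± 0.217. Of these, Itgav and Itga1 were not separated in sample range. Muscle laminin receptor Itga7 and the broadly expressed fibronectin receptor Itga5 were thus the leading alpha genes of these cells.

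The leading gene was another in the other 3 groups. Itgb1 was first, at 113 ± 19.2 FPKM in siSlc39a2, 164 ± 24.2 in siNeg PE and 355 ± 73.9 in siSlc39a2 PE. In siNeg PE its samples overlapped those of Itga5, which was second at 142 ± 2.61. In siSlc39a2 PE the next gene, Itgb5, was at 117 ± 5.91 FPKM and was not separated from Itga5 at 113 ± 6.43. Itga7 went from rank 1 in siNeg to rank 3 in siNeg PE and rank 4 in both siSlc39a2 groups. In siNeg PE, Itgb3, Itgav and Itga1 overlapped in turn. Itgb5, Itga5 and Itga7 did so in siSlc39a2, as did Itga1 and Itgav. Itga8 was lowest in all 4 groups, between 0.790 ± 0.106 and 1.28 ± 0.217 FPKM.

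The shares of the subunits within a sample give the same data without the scale of the library. Itga7 made up 43.7% ± 0.115 (SD, n = 3) of the summed FPKM of the 7 alpha genes in siNeg and 36.9% ± 0.582 in siNeg PE, against 34.96% ± 0.479 in siSlc39a2 and 30.6% ± 0.247 in siSlc39a2 PE, and no samples of neighbouring groups in this order overlapped. The 3 laminin-binding alpha genes together made up 57.6% ± 0.145 in siNeg and the 3 RGD-binding ones 39.1% ± 0.240. In siSlc39a2 PE this order was turned, at 46.2% ± 0.431 and 48.0% ± 0.645. Among the 3 beta genes Itgb1 held 43.7% ± 3.39 in siNeg and 60.9% ± 2.88 in siNeg PE, against 51.1% ± 5.35 in siSlc39a2 and 72.7% ± 4.90 in siSlc39a2 PE. The ratio of Itgb1 to the summed alpha genes was 0.378 ± 0.0439 in siNeg and 0.475 ± 0.0627 in siNeg PE, against 0.517 ± 0.124 in siSlc39a2 and 1.23 ± 0.267 in siSlc39a2 PE. The siSlc39a2 PE samples lay above every other sample in this ratio, and the siNeg PE samples overlapped those of siNeg and of siSlc39a2. These shares rest on transcript levels and say nothing of assembled receptors. They were not tested.

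**Figure D1:**
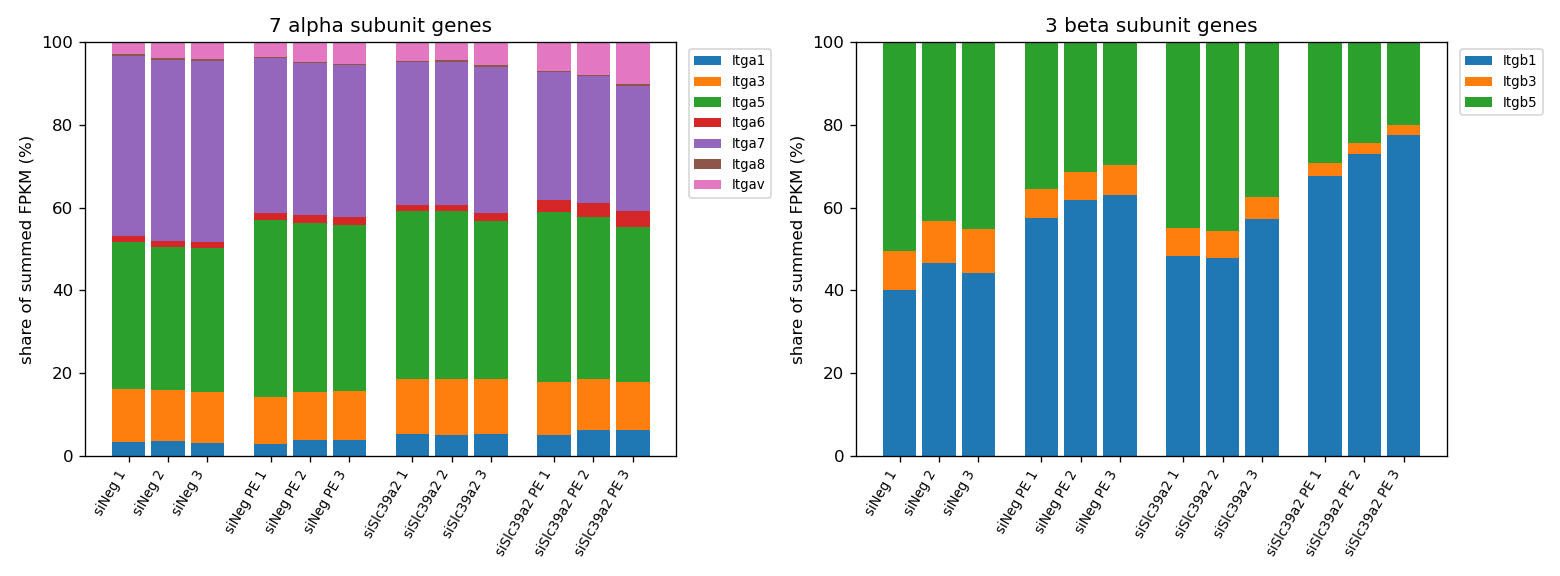
Stacked bars give the share, in percent, of each integrin gene in the summed FPKM of the 7 alpha genes (left) and of the 3 beta genes (right), 1 bar per sample of the 4 groups. Itga7 takes 43.7% of the alpha total on average in siNeg and 30.6% in siSlc39a2 PE, and Itgb1 takes 43.7% and 72.7% of the beta total.

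The groups were set against each other in 5 comparisons. PE was compared with no PE in siNeg cells and in siSlc39a2 cells, siSlc39a2 was compared with siNeg without and with PE, and the interaction is the effect of siSlc39a2 with PE less its effect without PE. All 5 comparisons, the interaction included, share groups with each other, so their values are given side by side and are not independent. A gene was called at an adjusted p below 0.05 (edgeR quasi-likelihood test, Benjamini-Hochberg over all 13967 genes), and calls with an absolute log2 fold change above 1 are counted separately.

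PE without knockdown was followed by higher levels of most integrin genes. In siNeg PE compared with siNeg, 7 of the 10 genes were higher and 2 were lower, and Itga8 was not called. Of all genes tested, 24% were higher and 25.7% lower. The median log2 fold change of the 10 genes was 0.48, against -0.01 for all genes. The largest increases were those of Itga6 (0.80), Itgav (0.76) and Itgb1 (0.74), the lower genes were Itgb3 (-0.24) and Itgb5 (-0.26), and none passed a log2 fold change of 1, which 6.6% of all genes did. Genes of length class 5 had a median log2 fold change of 0.20 in this comparison, and those of class 4 0.10.

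Knockdown of Slc39a2 without PE went the other way. In siSlc39a2 compared with siNeg no integrin gene was higher and 5 were lower (Itga8, Itgb3, Itga7, Itgb5 and Itga3), against 22.8% and 26.4% of all genes, with a median of -0.19 for the 10 genes and -0.02 for all genes on the log2 scale. No integrin gene was higher at an unadjusted p below 0.05 either (edgeR), nor by DESeq2 or limma. Neither these nor the other 5 genes passed a log2 fold change of 1, compared with 9.78% of all genes. Leaving out replicate 3 of siSlc39a2 removed the calls of Itgb5 and Itga3 and left 3 lower genes, and that of Itga3 was also lost without any one siNeg replicate or without replicate 2 of siSlc39a2.

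With PE present, siSlc39a2 cells differed from siNeg cells in both directions. In siSlc39a2 PE compared with siNeg PE, 5 genes were higher (Itgb1, Itga1, Itgav, Itga6 and Itgb5) and 3 lower (Itga7, Itgb3 and Itga5), against 29.2% and 28.1% of all genes. The median of the 10 was 0.26, against 0.01 for all genes. Itgb1 was the only one of the 10 past a log2 fold change of 1, which 11.6% of all genes passed, and it did not without replicate 3 of siSlc39a2 PE (0.94). The 3 lower genes include the leading alpha subunits for laminin and fibronectin.

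PE after knockdown gave the widest increase. In siSlc39a2 PE compared with siSlc39a2, 9 of the 10 genes were higher, none was lower and Itgb3 was not called, against 30.7% higher and 29.3% lower among all genes. None was lower by DESeq2, by limma or at an unadjusted p below 0.05 either. Itgb1, Itga6, Itgav and Itga1 passed a log2 fold change of 1, that is 4 of 10 genes against 10.5% of all. Itga1 did not pass it by limma (0.56 on log2(FPKM + 1)), without replicate 3 of siSlc39a2 PE (0.94) or with the trend on transcript length removed (0.81), and with that trend removed Itgav did not either (0.96). The median of the 10 was 0.56, against 0.01 for all genes, 0.27 for length class 5 and 0.11 for class 4. With each sample's trend on transcript length removed, an alternative added after seeing the data, Itga3, Itga5 and Itga7 were no longer called here (adjusted p = 0.386, 0.0636 and 0.359, edgeR), nor were Itga3 and Itga7 in siNeg PE compared with siNeg (adjusted p = 0.252 and 0.597).

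**Figure D2:**
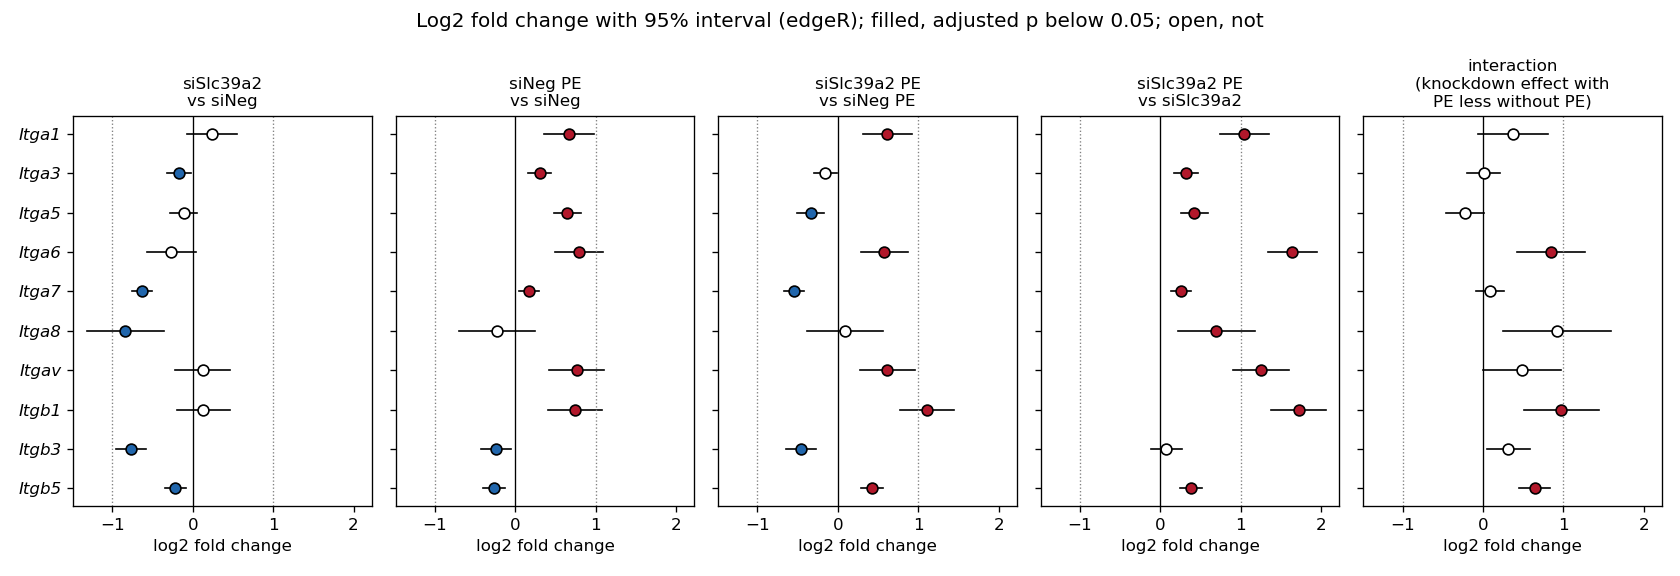
Points give the log2 fold change of each integrin gene in the 5 comparisons, with lines for the 95% interval from edgeR, filled where the adjusted p was below 0.05 (red higher, blue lower) and open otherwise. In siSlc39a2 PE compared with siSlc39a2, 9 points are filled red, and 4 of them lie above 1.

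Itgb1 (NCBI gene 24511), the common beta subunit of the laminin, collagen and fibronectin receptors, changed most among the integrin genes. It was at 309, 395 and 357 CPM in siNeg replicates 1 to 3 and at 510.1, 594 and 672 CPM in siNeg PE. Without PE the knockdown samples were at 356, 349.6 and 457 CPM, and with PE at 1035, 1235 and 1555 CPM. The siSlc39a2 and siNeg samples overlapped, and all siSlc39a2 PE samples lay above every other sample.

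The log2 fold change of Itgb1 was 0.74 (SE 0.15, adjusted p = 0.00195, edgeR) for PE in siNeg cells and 1.72 (SE 0.16, adjusted p = 2.53e-06) for PE in siSlc39a2 cells. For the knockdown it was 0.13 without PE (95% interval -0.20 to 0.46, adjusted p = 0.500) and 1.11 with PE (SE 0.15, adjusted p = 6.72e-05). In linear terms Itgb1 was 2.15-fold higher in siSlc39a2 PE than in siNeg PE and 3.29-fold higher in siSlc39a2 PE than in siSlc39a2. Counts of Itgb1 were not whole in any of the 12 samples, so reads were split between it and other genes and the size of its changes is uncertain.

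**Figure D3:**
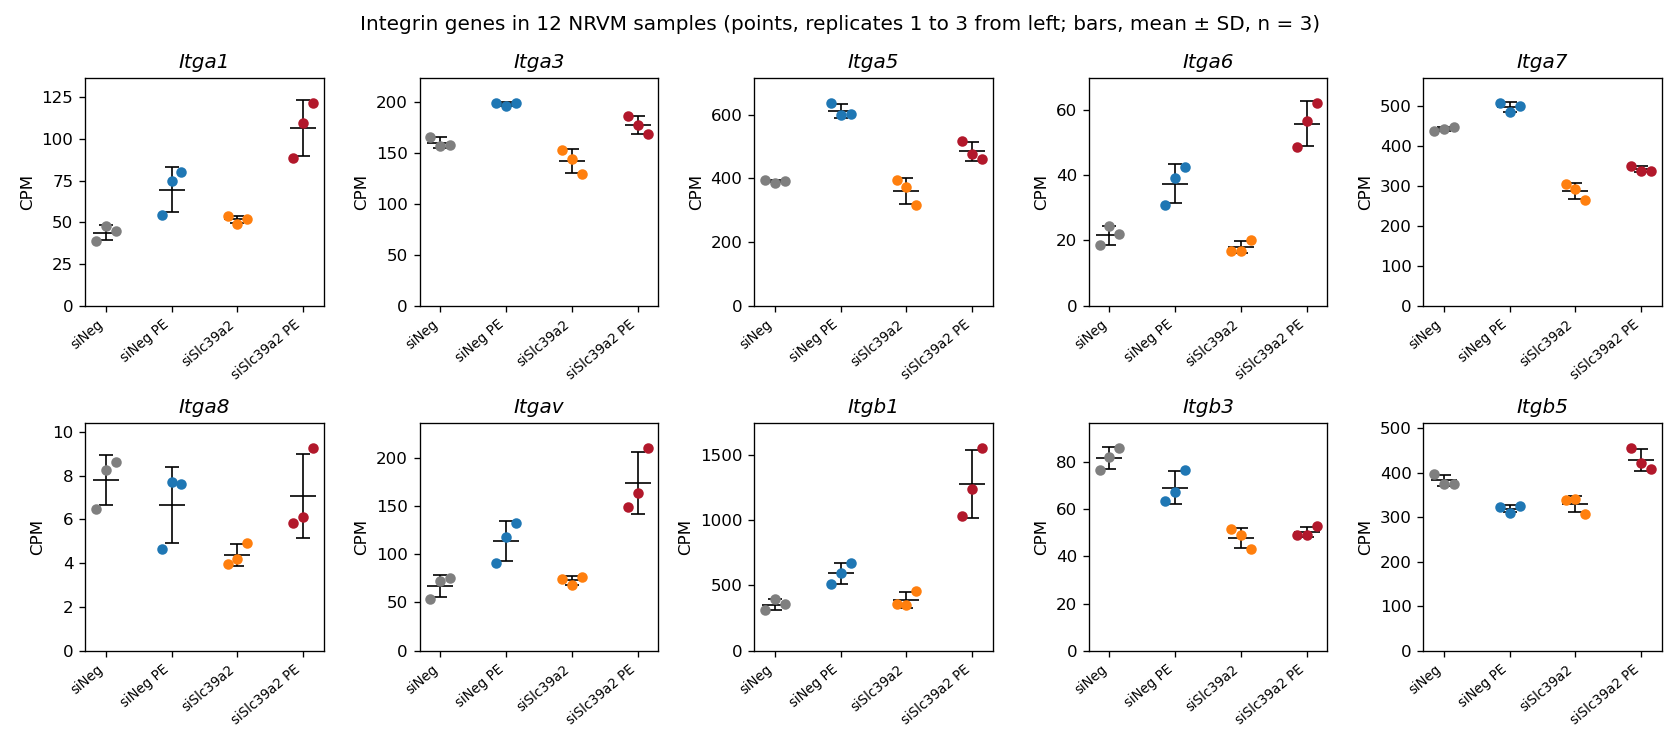
Panels give the CPM of each integrin gene in the 12 samples by group (grey, siNeg; blue, siNeg PE; orange, siSlc39a2; red, siSlc39a2 PE), with a point per replicate and bars for the mean ± SD (n = 3). Itgb1 reaches 1035 to 1555 CPM in siSlc39a2 PE and 672 CPM at most elsewhere, whereas Itga7 is lowest in siSlc39a2.

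Itgb5 (NCBI gene 257645), the beta5 partner of alphav, changed by small amounts in all 4 comparisons of groups, up with PE only where Slc39a2 had been knocked down. Its siNeg samples were at 398, 375 and 375 CPM and its siNeg PE samples at 323, 309 and 325 CPM. The siSlc39a2 samples were at 338, 342 and 308 CPM, and the siSlc39a2 PE samples at 456, 421 and 409 CPM. PE samples were thus below the control samples in siNeg cells and above them in siSlc39a2 cells, with no overlap in either case. The log2 fold changes for PE were -0.26 (SE 0.06, adjusted p = 0.00413, edgeR) and 0.38 (SE 0.06, adjusted p = 2.29e-04), and those for the knockdown were -0.22 without PE (adjusted p = 0.0106) and 0.43 with PE (adjusted p = 9.05e-05). The decrease with PE was not called by limma on log2(FPKM + 0.1), at -0.16 (adjusted p = 0.0555), and the increase with PE after knockdown was 0.22 (adjusted p = 0.0318) with the length trend removed. Without the filter on low counts, the decrease with knockdown was -0.18 and not called (adjusted p = 0.0548).

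Itgb3 (NCBI gene 29302), the beta3 partner of alphav, was lower after knockdown whether or not PE was present. It was at 76.8, 82.2 and 86.2 CPM in siNeg and at 51.5, 49.1 and 43.2 CPM in siSlc39a2, without overlap (log2 fold change -0.77, SE 0.09, adjusted p = 1.35e-05, edgeR). With PE it was at 63.4, 67.4 and 76.9 CPM in siNeg cells and at 49.3, 49.2 and 52.9 CPM in siSlc39a2 cells, again without overlap (-0.46, SE 0.09, adjusted p = 7.36e-04). PE in siNeg cells gave -0.24 (adjusted p = 0.0362), but the samples overlapped and the call was lost in 4 of the 6 fits that left out 1 replicate. PE in siSlc39a2 cells gave 0.08, with a 95% interval of -0.11 to 0.27.

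Among the laminin-binding alpha genes, Itga7 (NCBI gene 81008) fell most with knockdown in both settings. It was at 439, 443 and 449 CPM in siNeg and at 305, 291 and 266 CPM in siSlc39a2. With PE the siNeg samples were at 509, 485 and 502 CPM and the siSlc39a2 samples at 351, 339 and 337 CPM. Every siSlc39a2 sample, with or without PE, lay below every siNeg sample. The log2 fold changes of the knockdown were -0.63 (SE 0.06, adjusted p = 1.89e-06, edgeR) and -0.54 (SE 0.06, adjusted p = 6.59e-06). The increases with PE were small, 0.17 (adjusted p = 0.0284) in siNeg cells and 0.25 (adjusted p = 0.00239) in siSlc39a2 cells, and neither was called once the trend on transcript length was removed.

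Itga6 (NCBI gene 114517), a laminin-binding subunit at a low level in these cells, had the second largest increase with PE after knockdown. It was at 18.5, 24.3 and 21.8 CPM in siNeg and at 30.8, 38.9 and 42.4 CPM in siNeg PE (log2 fold change 0.80, SE 0.14, adjusted p = 6.28e-04, edgeR). In siSlc39a2 it was at 16.8, 16.8 and 20.1 CPM and in siSlc39a2 PE at 48.5, 56.5 and 62.1 CPM (1.64, SE 0.14, adjusted p = 1.46e-06). The siSlc39a2 PE samples were above all others, and the siSlc39a2 and siNeg samples overlapped. Knockdown gave -0.27 without PE (95% interval -0.57 to 0.04, adjusted p = 0.133) and 0.58 with PE (adjusted p = 0.00289). The value without PE was called by limma on log2(FPKM + 1), at -0.29 (adjusted p = 0.0271), and with the length trend removed, at -0.31 (adjusted p = 0.0105).

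Itga3 (NCBI gene 360606) is the remaining laminin-binding alpha gene. It was between 157 and 166 CPM in siNeg and between 196 and 199.6 CPM in siNeg PE. With knockdown it was between 129 and 153 CPM in siSlc39a2 and between 169 and 186 CPM in siSlc39a2 PE. PE gave log2 fold changes of 0.31 and 0.32 in siNeg and siSlc39a2 cells, both called but not after removal of the length trend. The decrease with knockdown of -0.17 was at the edge of the threshold (adjusted p = 0.0494, edgeR) and was called in 1 of the 6 fits that left out 1 replicate and not by DESeq2 (adjusted p = 0.0752). With PE the difference was -0.16 (adjusted p = 0.0572), which DESeq2 called (adjusted p = 0.0478), as did limma on log2(FPKM + 1) at -0.23 (adjusted p = 0.00964).

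Itga1 (NCBI gene 25118), the collagen-binding member, was higher with PE and higher still with PE after knockdown. Its samples were at 38.7, 47.7 and 44.7 CPM in siNeg and at 54.3, 74.5 and 79.8 CPM in siNeg PE (log2 fold change 0.67, SE 0.14, adjusted p = 0.00227, edgeR). They were at 53.6, 49.1 and 52.2 CPM in siSlc39a2 and at 88.3, 109.5 and 122 CPM in siSlc39a2 PE (1.04, SE 0.14, adjusted p = 6.17e-05). The siSlc39a2 PE samples lay above all siNeg PE samples (0.61, adjusted p = 0.00242). Without PE the knockdown samples were just above those of siNeg, at a log2 fold change of 0.24 (adjusted p = 0.181), a difference called when these groups were fitted alone (0.27, adjusted p = 0.0288). The counts of Itga1 were not whole in any sample, and the length implied by count and FPKM ranged from 4499 to 6922 bases between samples, so its values are less certain than those of the other alpha genes. By limma on log2(FPKM + 1) its 3 called log2 fold changes were 0.40 for PE in siNeg cells, 0.56 for PE in siSlc39a2 cells and 0.38 for the knockdown with PE, all still called.

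Among the RGD-binding alpha genes, Itgav (NCBI gene 296456) and Itga5 (NCBI gene 315346) both rose with PE and differed in how the knockdown samples lay. Itgav, which binds vitronectin and latent TGF-beta, was at 53.9, 72.1 and 75.5 CPM in siNeg and at 91.2, 118 and 133 CPM in siNeg PE (log2 fold change 0.76, SE 0.16, adjusted p = 0.00207, edgeR). It was at 74.8, 67.8 and 76.8 CPM in siSlc39a2 and at 149, 164 and 210.5 CPM in siSlc39a2 PE (1.25, SE 0.16, adjusted p = 3.76e-05). The siSlc39a2 PE samples were above all siNeg PE samples (0.61, SE 0.16, adjusted p = 0.00496), and without PE the groups overlapped (0.12, adjusted p = 0.550).

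Itga5, the fibronectin receptor subunit, was at 395, 387 and 392 CPM in siNeg and at 638, 598 and 604 CPM in siNeg PE (0.65, SE 0.08, adjusted p = 3.87e-05, edgeR). It was at 394, 375 and 316 CPM in siSlc39a2 and at 518, 476 and 461 CPM in siSlc39a2 PE. With PE the knockdown samples were thus below all siNeg PE samples (-0.34, SE 0.08, adjusted p = 0.00235), the opposite of Itgav. Without PE the groups overlapped (-0.11, 95% interval -0.28 to 0.05).

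Itga8 (NCBI gene 364786), an RGD-binding subunit known from mesenchymal cells, was barely expressed, with 115 to 255 counts per sample. It was at 6.48, 8.26 and 8.63 CPM in siNeg and at 3.98, 4.20 and 4.91 CPM in siSlc39a2, without overlap (log2 fold change -0.84, SE 0.22, adjusted p = 0.00737, edgeR). In siNeg PE it was at 4.64, 7.70 and 7.59 CPM and in siSlc39a2 PE at 5.82, 6.11 and 9.27 CPM, and these groups overlapped (0.09, adjusted p = 0.750). PE in siSlc39a2 cells gave 0.70 (adjusted p = 0.0162), a call lost in 3 of the 6 fits that left out 1 replicate. By limma on log2(FPKM + 1) this was 0.26 and the decrease with knockdown -0.47, both called.

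The effect of the knockdown differed between cells with and without PE for 3 of the 10 integrin genes. The interaction was positive for Itgb1 (log2 fold change 0.98, SE 0.22, adjusted p = 0.0266, edgeR), Itga6 (0.84, SE 0.20, adjusted p = 0.0330) and Itgb5 (0.64, SE 0.09, adjusted p = 0.00125). Over all genes tested, 1.73% had a positive and 1.88% a negative interaction, and 0.988% passed a log2 fold change of 1 as well, which none of the 10 genes did. No negative interaction was found among the 10 genes, by edgeR at an unadjusted p below 0.05, by DESeq2 or by limma. The sum of the knockdown and PE effects on the log2 scale thus fell short of the siSlc39a2 PE level for these 3 genes. Itgb5 was called in all 12 fits that left out 1 replicate. Itgb1 was called in 5 and Itga6 in 4 of these fits, with adjusted p up to 0.0861 and 0.0978, and limma on log2(FPKM + 1) did not call Itgb1 (0.98, adjusted p = 0.0740). The other 7 genes had interactions between -0.22 for Itga5 and 0.92 for Itga8, the latter with a 95% interval of 0.25 to 1.60 and an adjusted p of 0.143.

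Of 16 further integrin subunit genes, 13 passed the filter, and in siNeg none of these was above 4.19 FPKM on average. Knockdown without PE left 2 of the 13 higher and 5 lower, against 22.8% and 26.4% of all genes. Itga11, a collagen receptor subunit of fibroblasts, fell from 3.70 FPKM on average in siNeg to 0.937 in siSlc39a2 (log2 fold change -2.004, SE 0.15, adjusted p = 1.98e-07, edgeR). Itgb2, the beta subunit of leukocyte integrins, fell by 1.32 and Itgae by 1.39 on the log2 scale. Itgb2 counts were not whole in every sample. Itga9, whose subunit binds tenascin and other ligands with beta1, had the highest level of these genes with PE. In siSlc39a2 PE it was near Itgav (23.7 FPKM). It was left out of the alpha shares and the Itgb1 ratio above, which cover the 7 alpha genes only. It stood at 4.19 FPKM on average in siNeg and 10.7 in siNeg PE, against 7.11 in siSlc39a2 and 23.1 in siSlc39a2 PE, with log2 fold changes of 1.28 for PE in siNeg cells, 1.11 for the knockdown with PE and 1.76 for PE in siSlc39a2 cells (adjusted p = 3.41e-07). Itgb8, a beta subunit that pairs with alphav and was named after its values were seen, was also higher in all 4 comparisons of groups, at low levels of 0.673 to 1.59 FPKM on average. In siSlc39a2 PE compared with siNeg PE, 2 of the 13 genes were higher and 5 lower, against 29.2% and 28.1% of all genes. With PE, 3 were higher and 2 lower in siNeg cells (24% and 25.7% of all genes), and 2 were higher and 4 lower in siSlc39a2 cells (30.7% and 29.3%). None had a called interaction in edgeR, where 2 were positive and 0 negative at an unadjusted p below 0.05. The share of all genes at that unadjusted threshold was not counted.

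Genes that work with integrins inside the cell were covered by a list of focal adhesion and adhesome genes, of which 51 were tested. In siSlc39a2 compared with siNeg, 7 were higher and 27 lower, against 22.8% and 26.4% of all genes. In siNeg PE compared with siNeg, 19 were higher and 12 lower, against 24% and 25.7%, so the lower genes were near the share of all genes. So were both directions in siSlc39a2 PE compared with siNeg PE, with 17 higher and 15 lower against 29.2% and 28.1%. In siSlc39a2 PE compared with siSlc39a2, 28 were higher and 8 lower, against 30.7% and 29.3%. The median log2 fold changes were -0.22, 0.04, 0.05 and 0.34 in this order, and those of all genes -0.02, -0.01, 0.01 and 0.01. Flna, an actin crosslinker that binds beta subunit tails, fell by 1.26 on the log2 scale with knockdown, while the proteoglycan coreceptor Sdc4 rose by 1.18. Ptk2b, a kinase related to FAK, rose by 1.17 with PE in siNeg cells and by 1.69 in siSlc39a2 cells. Pak1, a kinase that acts on the cytoskeleton, rose by 1.20 in siSlc39a2 PE compared with siNeg PE.

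The interaction was positive for 12 of the 51 adhesome genes and negative for 1, against the 1.73% and 1.88% of all genes given above. Actn1, the non-muscle alpha-actinin that links integrins to actin, had the largest at 1.60 (SE 0.21, adjusted p = 0.00115, edgeR), with 43.1 FPKM on average in siNeg and 51.3 in siNeg PE, against 35.8 in siSlc39a2 and 116 in siSlc39a2 PE. Filip1, a filamin-interacting protein, had 0.95 and Csrp1, a LIM protein of actin bundles, 0.93. Ilk, the kinase-like scaffold that binds beta1 tails, had 0.56 (adjusted p = 0.00438), and Tln1, the talin that activates integrins, 0.54 (adjusted p = 0.0370). The single negative value was that of Fyn, a Src family kinase, at -0.49. Ilk, Tln1 and Fyn were chosen after their values were seen.

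Extracellular ligands of integrins made up a list of which 36 genes were tested, and most of them were lower after knockdown. In siSlc39a2 compared with siNeg, 2 were higher and 32 lower, against 22.8% and 26.4% of all genes, with a median log2 fold change of -1.17. In siSlc39a2 PE compared with siNeg PE, 5 were higher and 24 lower, against 29.2% and 28.1%, with a median of -0.77. Laminin chain Lamc3 fell by 2.62 and 3.31 on the log2 scale in these comparisons, from 0.370 FPKM in siNeg, and some of its reads were shared. Col6a3, a chain of collagen VI, fell by 2.39 and 2.04 from 49.2 FPKM in siNeg. PE was followed by 7 higher and 17 lower genes in siNeg cells, against 24% and 25.7% of all genes, and by 14 higher and 10 lower genes in siSlc39a2 cells, against 30.7% and 29.3%. The laminin chain Lamb3 rose most with PE, by 2.51 in siNeg cells and 2.19 in siSlc39a2 cells (adjusted p = 2.95e-09 and 5.22e-09, edgeR). The laminin chain Lama3 was under 0.1 FPKM on average in all 4 groups.

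The interaction was positive for 8 of the 36 ligand genes and negative for none, against 1.73% and 1.88% of all genes. At an unadjusted p below 0.05, 17 were positive and 4 negative (edgeR), and the share of all genes at that threshold was not counted. Ctgf and Cyr61, matricellular proteins that bind integrins, and Tgfb3, whose latent form is a ligand of alphav integrins, had the largest values at 2.22, 1.40 and 2.04 (adjusted p = 3.4e-05, 3.97e-05 and 5.2e-07, edgeR). All 3 fell with PE in siNeg cells and rose with PE in siSlc39a2 cells. For Ctgf the means were 139 FPKM in siNeg and 77.3 in siNeg PE, against 100.3 in siSlc39a2 and 236 in siSlc39a2 PE, and the log2 fold changes of PE were -0.93 and 1.29. Of the 10 integrin genes, Itgb5 alone was called lower with PE in siNeg cells and higher with PE in siSlc39a2 cells.

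**Figure D4:**
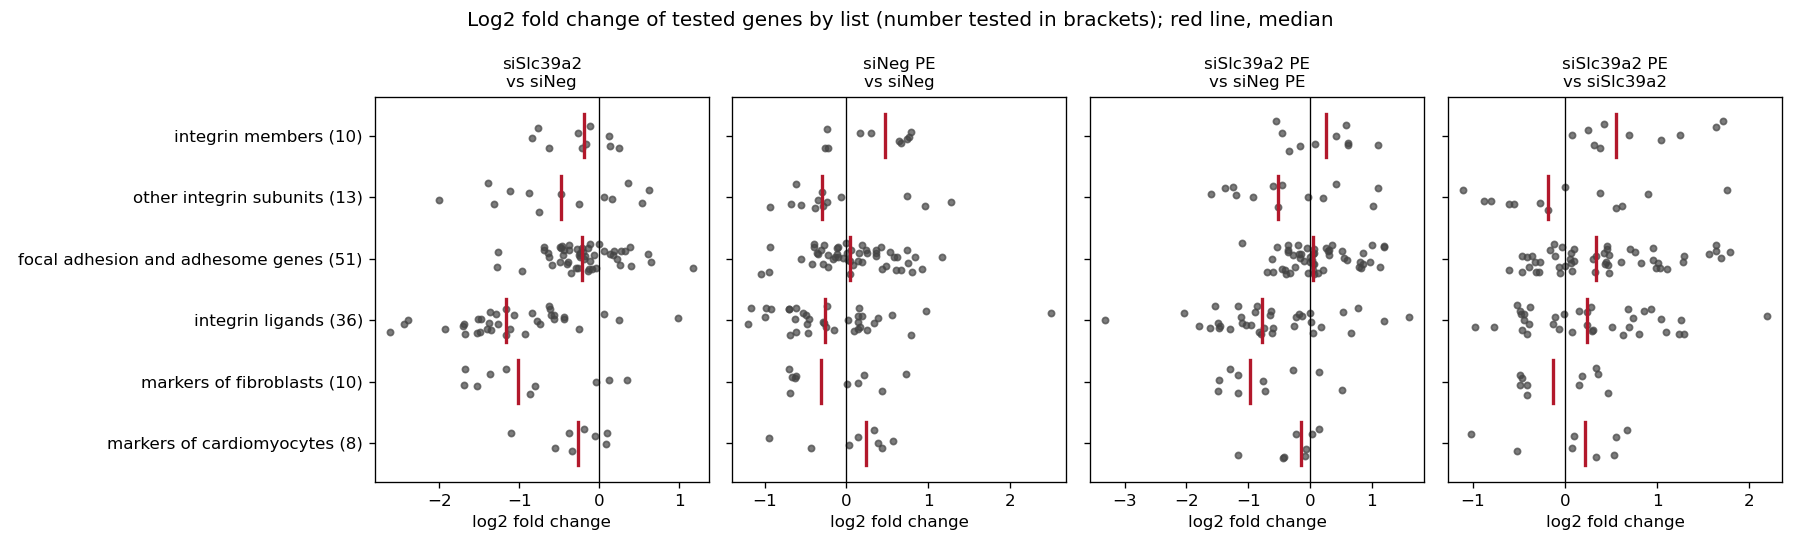
Points give the log2 fold change of each tested gene of 6 lists in 4 comparisons, spread vertically for legibility, with a red line at the median of the list and the number of genes in brackets. In siSlc39a2 compared with siNeg the ligand genes lie around a median of -1.17 and the 10 integrin genes around -0.19.

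Of the 10 fibroblast markers, 4 (Col1a1, Col1a2, Col3a1 and Postn) are also ligand genes. Their summed level over 10 genes was 13911 to 18414 CPM in siNeg and 9220 to 11821 in siNeg PE, against 5394 to 5701 in siSlc39a2 and 3640 to 5028 in siSlc39a2 PE. The 4 shared genes carried 16466 CPM of the mean sum in siNeg and 5310 in siSlc39a2, and the other 6 markers 223 and 187. Pdgfra and Dcn were higher with PE in siNeg cells, where the sum was lower. Of the 10, 7 were lower with knockdown alone and 1, the transcription factor Tcf21, was higher, against 26.4% and 22.8% of all genes. All 8 markers of smooth muscle cells and pericytes were lower in that comparison, with a summed level of 6986 to 7618 CPM in siNeg and 4182 to 4674 in siSlc39a2. Their level was 6993 to 7347 CPM in siNeg PE and 6658 to 7337 CPM in siSlc39a2 PE. Of the 8, 4 had a positive interaction, against 1.73% of all genes, led by Cnn1 (1.71), Acta2 (1.29) and Tagln (1.25). Acta2 counts were not whole in every sample. Des made up most of these sums, at 4634 CPM on average in siNeg and 3379 in siSlc39a2. Acta2 was next at 1252 and 467 CPM, whereas Myh11 was at 12.2 and Rgs5 at 0.571 CPM in siNeg. Whether the RNA of Des and Acta2 came from smooth muscle cells and pericytes or from the myocytes was not tested. In bulk RNA, fewer cells of a type and less RNA per cell cannot be told apart. The part of fibroblasts, smooth muscle cells and pericytes in the lower levels of Itgb3, Itga8 and Itga7 was not tested.

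Markers of cardiomyocytes had a lower sum in knockdown samples, at 32376 to 33586 CPM in siSlc39a2 compared with 42324 to 43607 in siNeg. With PE the sum was 36862 to 37664 CPM in siSlc39a2 PE compared with 41224 to 44854 in siNeg PE. Of the 8 genes, 4 were lower without PE and 3 with PE, against 26.4% and 28.1% of all genes. They were led by Myh6, the alpha myosin heavy chain (-1.10 and -1.16). Myh6 carried most of the difference in the sum, and its counts were not whole in every sample, so some of its reads were shared. The other 7 genes summed to 26981 CPM on average in siNeg and 25484 in siSlc39a2, and to 35295 in siNeg PE and 33697 in siSlc39a2 PE, and Tnnt2 and Myl2 were not called in either comparison. Endothelial markers summed to 17.3 to 27.3 CPM over all samples, macrophage markers to 8.58 to 23.0 CPM and platelet markers to 1.45 to 4.12 CPM. With knockdown, 2 of 7 tested endothelial markers and 3 of 6 macrophage markers were lower and none was higher, against 26.4% and 22.8% of all genes. Of the 2 tested platelet markers neither was called there. All 3 lists were small beside the integrin genes, which summed to 1673 to 3386 CPM.

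**Figure D5:**
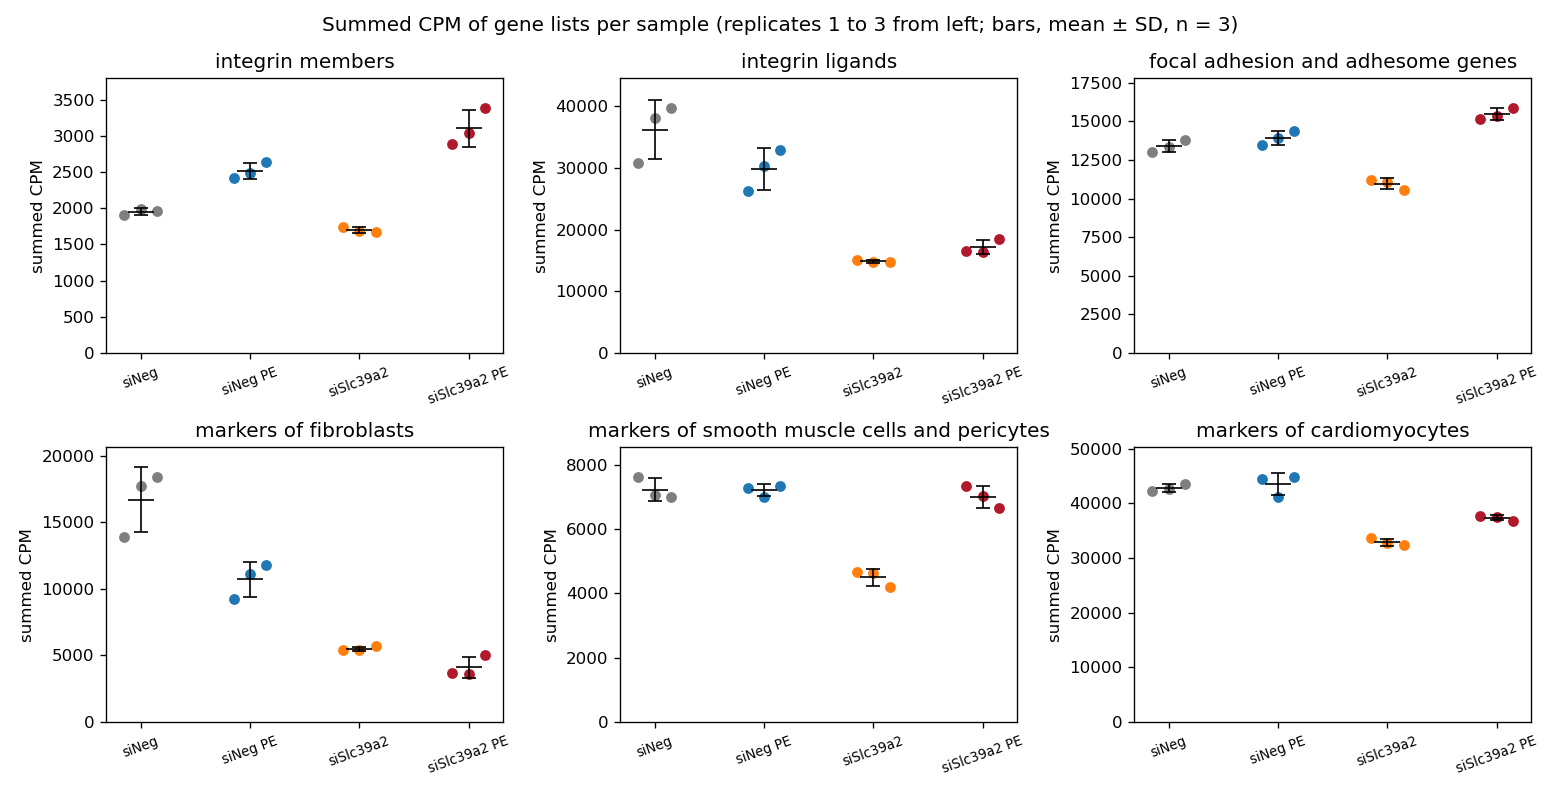
Panels give the summed CPM of 6 gene lists in each of the 12 samples, with a point per replicate and bars for the mean ± SD (n = 3). The 10 integrin genes sum to between 1673 and 1746 CPM in siSlc39a2 and between 2887 and 3386 in siSlc39a2 PE, whereas fibroblast markers are at 3640 to 5028 in siSlc39a2 PE.

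The genes whose pattern over the 4 groups was most like that of each integrin gene past a log2 fold change of 1 were found by the root mean square difference of group means of log2 CPM, each centred on its mean. For Itgb1 these were Rgs7bp (0.0526), S1pr1 (0.0651) and Ppp1r36 (0.0687), and for Itgav LOC103689968 (0.0114), Rtn4 (0.0193) and LOC314407 (0.0297). For Itga1 they were Cacul1 (0.0209), Slc30a4 (0.0240) and Acap2 (0.0294), and for Itga6 Tanc2 (0.0485) and 2 loci, LOC103690189 and LOC102554594, with identical values (0.0640). With 4 group means, such likeness is a description.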

How the data were processed

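RNA-seq of 12 NRVM samples was analysed from processed values. The authors deposited 2 tables of 18483 genes, one of unnormalized expected counts and one of FPKM. The submitters' processing notes name HISAT, Bowtie2 and the genome build Rnor_6.0 without roles, and the counting program and annotation are not given in the sources used here. Expected counts were rounded to whole numbers. filterByExpr of edgeR 4.0.16 (R 4.3.3) removed 4516 genes. After TMM normalization all 12 samples entered a single model of 4 groups (8 residual degrees of freedom). Contrasts were tested by quasi-likelihood and p-values adjusted by Benjamini-Hochberg over the 13967 genes kept. SE was derived from the fold change and F. Alternatives used DESeq2 1.42.0, RLE size factors, no filter, 2 groups alone, a replicate block, limma 3.58.1 after quantile normalization of log2(FPKM + 1) or log2(FPKM + 0.1), each sample left out in turn, and, added after seeing the data, an offset for transcript length. Fits were tested on simulated data. The integrin genes and all lists were chosen with earlier results of these data known. The text names all 10 genes, the 3 genes of each list with the largest called changes per comparison (or fewer), and the 3 nearest patterns. Some items are not reported here. The culture methods give a longer PE time than the labels, so samples were grouped by condition.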

Additional observations from a re-analysis of the deposited data

Results flagged for a closer look

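For 3 integrin genes the effect of the knockdown differed between cells with and without PE by the interaction test of edgeR. The interaction log2 fold change was 0.98 for Itgb1 (adjusted p = 0.0266), 0.84 for Itga6 (adjusted p = 0.0330) and 0.64 for Itgb5 (adjusted p = 0.00125). Without PE the knockdown values of these genes were 0.13, -0.27 and -0.22, and with PE they were 1.11, 0.58 and 0.43. Groups of 3 samples were not screened for single outlying samples.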

How the results depend on the processing

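Of the log2 fold changes recomputed under the alternatives, 670 kept their direction and their side of the threshold, 51 lost a call, 12 gained one and 17 changed sign. In siSlc39a2 compared with siNeg, 1 integrin gene was higher when the groups were fitted alone and 3 were lower without the filter on low counts, and 3 to 5 were lower with a replicate left out. In siNeg PE compared with siNeg, 1 gene was lower without the filter, 1 with the groups alone, 1 by limma on log2(FPKM + 1) and 0 by limma on log2(FPKM + 0.1), with 1 to 2 when a replicate was left out. Interactions were positive for 1 to 3 genes and negative for 0 to 1 with a replicate left out. The Itgb1 and Itga6 interactions were both not called without replicate 2 or 3 of siNeg, 1 or 2 of siNeg PE, 2 of siSlc39a2 PE, or 1 or 2 of siSlc39a2, and that of Itga6 also without replicate 3 of siSlc39a2 PE. Values that changed sign were small and uncalled. The interaction of Itga3 (0.01) was -0.0102 by DESeq2, -0.00999 with RLE factors, -0.027 without the filter, -0.056 by limma with either pseudocount, -0.040 with the length offset and -0.10 to 0.068 with a replicate left out. With the length offset Itga8 was at -0.022 in siSlc39a2 PE compared with siNeg PE and Itgb3 at -0.084 in siSlc39a2 PE compared with siSlc39a2. With a replicate left out these were -0.16 to 0.21 and -0.024 to 0.13, the knockdown values of Itga5 and Itgav were -0.18 to 0.023 and -0.014 to 0.21, and the interaction of Itga7 was -0.017 to 0.13. The cause was not tested.

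Replicate numbers were not used to pair the samples in the main fit, since the study's methods name no block. Whether they mark shared preparations was not tested. Of 18 same-numbered pairs, 8 had deviations from group means that correlated above 0.1. The mean correlation was 0.0905 for the same number (-0.0904 to 0.320) and -0.0452 for others (-0.249 to 0.236). Deviations from a group mean cancel out within the group, so the mean for others follows largely from that for the same number. It is not a separate comparison. Replicates 1 of siNeg, siNeg PE and siSlc39a2 PE correlated at 0.228 to 0.320, and 4 of 12 samples correlated best with their own number in every other group. With the replicate block, 6 integrin genes were lower in siSlc39a2 compared with siNeg, 4 were lower in siSlc39a2 PE compared with siNeg PE, and 4 had a positive interaction. Calls rose over all 13967 genes too. In the same order they were 4128, 4312 and 536 with the block, against 3685, 3929 and 241 in the main fit. The added integrin genes were Itga6, Itga3 and Itga8, and no other call among the 10 changed.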
